A study of Mus musculus with 56 samples.

Results

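Oligodendrocyte and myelin genes were followed across the tissues of wild-type (WT) mice and mice lacking Fmr1 (Fmr1 KO, written KO below). Fmr1 encodes FMRP, an RNA-binding protein whose loss underlies fragile X syndrome. The genes were 38 named genes among the 15777 genes in the brain table, 32 of mature, myelinating oligodendrocytes and 6 of oligodendrocyte precursors or of the whole lineage (Pdgfra, Cspg4, Gpr17, Olig1, Olig2 and Sox10). The members were chosen by name with the levels per region and the KO against WT differences of these brain libraries in view, so brain levels and brain differences of the 38 genes are given as description, without a test. Bulk RNA sequencing of cortex, hippocampus, cerebellum, liver, muscle and testis gave 3 libraries per genotype and tissue, 36 of the 56 samples of the series, and the other samples, all from a cell line, were not analysed here. The labels give genotype, tissue and replicate number, but not strain, age, sex or whether replicates came from separate animals, so every spread and p-value below measures the difference between these samples, which may be technical. The KO allele is labelled only as Fmr1 KO.

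Oligodendrocytes wrap axons of the brain and spinal cord in myelin, a compacted membrane that lets impulses jump along the axon. They arise from precursors that carry the receptor PDGFRA and the proteoglycan NG2 (Cspg4), pass through a newly formed stage marked by Gpr17, and then switch on myelin genes under the transcription factors SOX10 and MYRF. Hippocampus, cortex and cerebellum all hold both stages, and in bulk tissue fewer cells of a type and less RNA per cell cannot be told apart.

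Brain libraries held between 26264368 and 41384652 counts, and the liver, muscle and testis libraries between 13230785 and 16168225. Fmr1 was lower in every KO library than in every WT library of its tissue, with 84.98 to 94.91 CPM (read counts relative to the library's total, scaled by edgeR's TMM factors) in WT and 23.96 to 24.50 in KO hippocampus. The gap was smallest in muscle, with 11.99 to 17.56 CPM in WT and 8.07 to 10.31 in KO. Markers of hippocampus and cerebellum were highest in their own regions. Prox1, a dentate granule cell gene, reached 46.35 to 57.54 TPM (transcript levels scaled for gene length and library) in hippocampus. It reached at most 29.17 TPM in the other brain regions. Pcp2, a Purkinje cell gene, reached 2029 to 2894 TPM in cerebellum and at most 1.32 TPM in the others. Cux2, taken as the cortex marker, did not set cortex apart from cerebellum. It was at 21.48 to 53.52 TPM in cortex, 19.27 to 25.12 TPM in cerebellum and 9.9 to 15.8 TPM in hippocampus. Hippocampus WT 1 and KO 2 stood apart from the other 4 hippocampus libraries in choroid plexus RNA, as described below with Enpp2, and the hippocampus counts of the 38 genes and of the other gene lists were also taken without these libraries.

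The upstream sequences of 4 members are shown because the first 3 encode myelin proteins whose mRNAs were lower together in KO hippocampus, while Olig2 is a lineage transcription factor whose libraries overlapped between genotypes. RefSeq (GRCm38.p6) listed start sites for 26 of the 38 members, and each run is the 250 bases before the first listed start site, 5′ to 3′ on the gene's strand. Capitals mark matches on either strand to 3 motifs: CTGGCAC, a core of the sequence bound by MYRF, AACAAT, a SOX core, and CAGCTG, an E-box of the kind bound by OLIG2.
Mag, chr7:30914864-30915113, minus strand: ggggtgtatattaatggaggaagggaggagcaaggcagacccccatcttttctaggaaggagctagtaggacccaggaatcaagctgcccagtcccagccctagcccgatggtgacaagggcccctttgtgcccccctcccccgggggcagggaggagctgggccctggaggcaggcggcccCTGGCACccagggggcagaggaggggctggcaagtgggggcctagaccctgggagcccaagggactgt
Cnp, chr11:100574689-100574938, plus strand: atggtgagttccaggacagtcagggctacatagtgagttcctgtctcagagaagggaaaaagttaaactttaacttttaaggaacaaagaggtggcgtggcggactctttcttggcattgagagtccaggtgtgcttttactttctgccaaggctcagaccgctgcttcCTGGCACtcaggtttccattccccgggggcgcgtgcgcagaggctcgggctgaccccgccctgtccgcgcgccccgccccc
Mog, chr17:37023399-37023648, minus strand: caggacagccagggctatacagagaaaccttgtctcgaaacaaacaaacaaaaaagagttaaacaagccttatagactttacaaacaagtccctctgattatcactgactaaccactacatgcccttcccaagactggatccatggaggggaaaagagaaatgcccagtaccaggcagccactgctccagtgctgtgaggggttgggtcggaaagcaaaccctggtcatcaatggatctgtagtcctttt
Olig2, chr16:91225300-91225549, plus strand: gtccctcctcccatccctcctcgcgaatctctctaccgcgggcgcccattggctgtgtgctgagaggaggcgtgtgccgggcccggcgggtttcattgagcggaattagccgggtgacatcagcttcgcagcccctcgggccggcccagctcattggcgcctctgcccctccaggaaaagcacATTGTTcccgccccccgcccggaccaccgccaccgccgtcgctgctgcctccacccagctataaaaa
The Mag and Cnp runs each held the MYRF core once, the Olig2 run held the SOX core once, and the Mog run held none of the 3 motifs. Over all 32851 start sites listed for the mouse, 4.19% of such windows held the MYRF core, 9.42% the SOX core and 13.0% the E-box. Among the 33 windows of mature members, with several windows for some genes, 5 held the MYRF core, 4 the SOX core and 5 the E-box. Of the 5 with the MYRF core, 2 were overlapping windows of Mag, and the others belonged to Cnp, Hapln2 and Lpar1. Among the 3 windows of precursor members, only that of Olig2 held the SOX core, and none held either of the other motifs.

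In WT brain the mature genes ranged widely in level and the precursor genes were of low to moderate level in all 3 regions. Mbp, the basic protein that glues the inner faces of the myelin membrane, was the most abundant member in each region, at 3159, 3974 and 3839 TPM in cortex, 3657, 3534 and 3716 TPM in hippocampus and 3843, 3414 and 4116 TPM in cerebellum. These ranges overlapped. Mag, an adhesion molecule facing the axon, was at 178, 209.8 and 197 TPM in cortex, 200.1, 196 and 217 TPM in hippocampus and 205, 191 and 211 TPM in cerebellum, again without separation. The precursor members ran from a mean of 3.59 TPM for Cspg4 in cerebellum to 108 TPM for Olig1 in hippocampus.

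**Figure D1:**
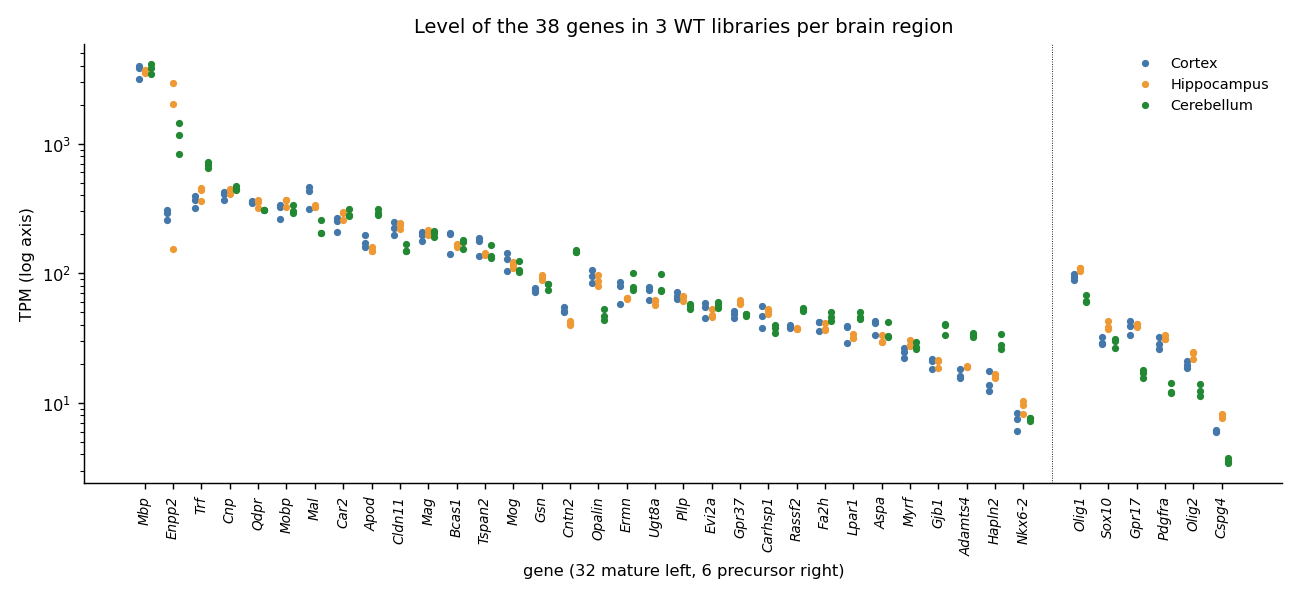
Deposited TPM (log axis) of the 38 genes in the 3 WT libraries of each brain region, 1 point per library. The 6 precursor genes at the right were lower in cerebellum than in hippocampus in every library, while the 32 mature genes at the left went either way.

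Cerebellum differed from the forebrain regions by gene rather than by a common shift of the mature members. Of the 32 mature genes, 12 had all 3 cerebellum WT libraries above all 3 cortex WT libraries and 5 had them below, beside 44.7% and 28.6% of the 14189 genes with a mean of at least 1 TPM. Cntn2, an adhesion protein of the nodal region that neurons such as granule cells also express, had the second highest cerebellum to cortex ratio of the members, at 147, 147 and 151 TPM in cerebellum against 50.6, 54.8 and 51.1 TPM in cortex, or 2.84. Hapln2, a link protein of the nodal matrix, was at 27.7, 25.9 and 34.1 TPM against 12.2, 17.6 and 13.8 TPM, a ratio of 2.01. Both genes belong to the node of Ranvier and its flanks. Opalin, a membrane glycoprotein of the myelin loops, had the lowest ratio of the mature members, 0.503, with 53.2, 43.5 and 46.8 TPM in cerebellum and 84.00, 107 and 95.04 TPM in cortex. Enpp2, which encodes the secreted enzyme autotaxin, had the highest ratio of all members, 3.99, and is taken up below with the choroid plexus genes.

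Precursor genes were lower in cerebellum as a group. All 6 were lower in every cerebellum WT library than in every hippocampus WT library, and 5 of the 6 were lower than in every cortex WT library, beside 29.4% and 28.6% of all genes. Gpr17, a receptor of newly formed oligodendrocytes, was at 16.9, 17.99 and 15.7 TPM in cerebellum and 33.4, 39.1 and 43.01 TPM in cortex, a ratio of 0.438. Pdgfra, the receptor for the growth factor that drives precursor division, was at 11.9, 12.2 and 14.1 TPM against 25.9, 28.2 and 32.4 TPM, a ratio of 0.441. Sox10 alone overlapped between cerebellum and cortex, with a ratio of 0.981. A share of TPM depends on the other RNAs of a region, so these ratios compare RNA shares, not cell numbers.

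Hippocampus and cortex were more alike. Of the mature members, 4 were above all cortex libraries in hippocampus, 3 were below and 25 overlapped, and 4 of the 6 precursor members were above, beside 25.6% of all genes above and 28.2% below. Sox10 (36.9, 38.2 and 42.5 TPM in hippocampus, 28.3, 32.1 and 28.8 TPM in cortex) and Cspg4 (7.63, 8.05 and 8.23 TPM and 6.12, 6.17 and 5.91 TPM) had the highest ratios apart from Enpp2, 1.32 and 1.31. The lowest ratios were those of Aspa (0.788, with 33.4, 29.7 and 29.3 TPM in hippocampus and 33.1, 43.03 and 41.1 TPM in cortex), Cntn2 (0.795) and Mal (0.8197, with 325, 324 and 336 TPM and 311, 431 and 461 TPM). The Aspa and Mal libraries of the regions overlapped, and those of Cntn2 did not.

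In KO hippocampus the mature genes were lower as a body, and the precursor genes were lower by less. All 32 mature members had a negative log2 fold change, with a median of -0.37 against 0.00 for all 14843 genes tested, and 29 of them had all 3 KO libraries below all 3 WT libraries, beside 9.35% of all genes. The 6 precursor members had a median of -0.07, and Sox10 was the 1 member among them without overlap. By role, libraries did not overlap for 7 of 7 genes of the compact myelin membrane, 9 of 9 of adhesion, loops and cytoskeleton, 6 of 8 of lipids, metabolism and transport, 6 of 6 of receptors, signalling and other functions, and 1 of 2 transcription factors. The edgeR quasi-likelihood test across all genes called 10 of the 32 lower, beside 0.195% of all genes, but this contrast served to choose the list and nothing is read from that count. Without WT 1 and KO 2, the libraries poor in choroid plexus RNA, 30 of 32 did not overlap (20.6% of all genes with 2 libraries per group) and the median was -0.34, while no member was called by edgeR. In the same 4 libraries 3 of the 6 precursor members were lower without overlap, with a median of -0.09. Their count was also 3 without WT 1 or without WT 2, 2 without KO 1 or without KO 3, and 1 without WT 3 or without KO 2. In these settings 13.1% to 16.8% of all genes were lower without overlap.

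**Figure D2:**
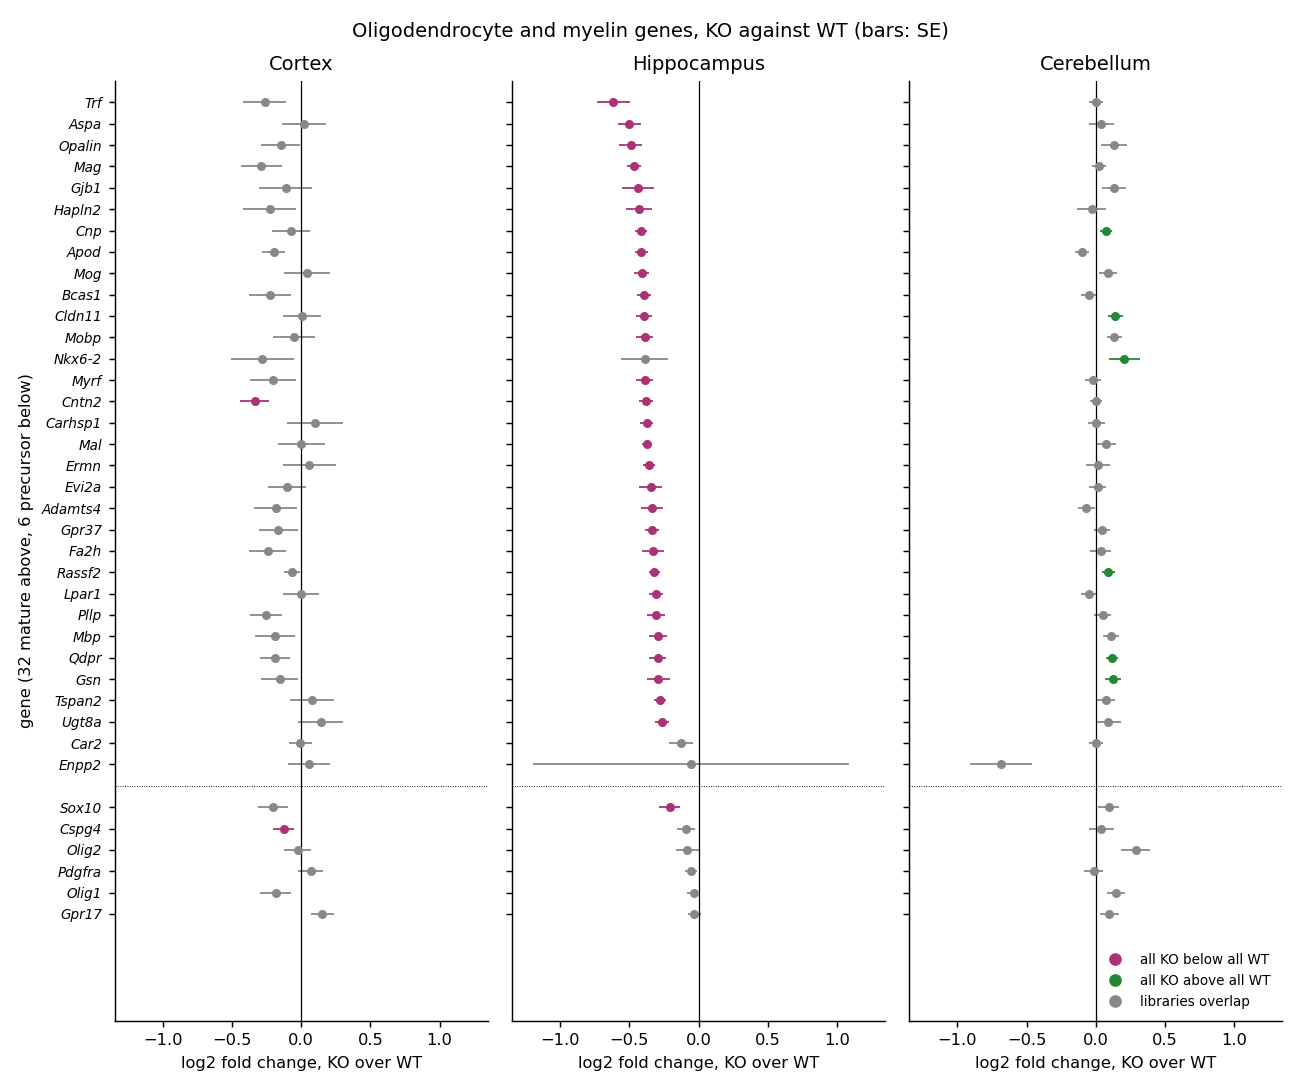
Log2 fold change of KO over WT with its standard error (edgeR) for the 38 genes in 3 brain regions, coloured by whether the 3 KO and 3 WT libraries overlapped. All 32 mature genes lay left of 0 in hippocampus, with a median of -0.37, while cortex (median -0.13) and cerebellum (median 0.04) held mixed directions.

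Among the genes of the compact membrane, Mbp was at 2608, 2474 and 2632 CPM in the WT libraries and 2049, 2087 and 2158 in the KO libraries, a log2 fold change of -0.29 ± 0.07 (SE). Mobp, a second basic protein of compact myelin, was at 338, 301 and 337 CPM in the WT libraries and 238, 244 and 263 in the KO libraries (-0.39 ± 0.06). Cldn11, the claudin of the myelin tight junctions, was at 151, 139 and 157 CPM in the WT libraries and 109, 111 and 119.8 in the KO libraries (-0.39 ± 0.06). For each of these genes the highest KO library lay below the lowest WT library. Gjb1, which encodes the gap junction protein connexin 32, was at 11.2, 11.1 and 9.76 CPM in the WT libraries and 7.204, 7.26 and 9.14 in the KO libraries (-0.44 ± 0.12), with KO 3 close to WT 3. Mal, Pllp and Tspan2, which encode membrane-spanning proteins of myelin, had log2 fold changes of -0.37, -0.30 and -0.28.

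The genes of adhesion and of the non-compact loops were lower by similar amounts. Mag was at 173, 167 and 187 CPM in the WT libraries and 126, 126 and 129 in the KO libraries (-0.46 ± 0.05), so that the 3 KO libraries lay within a few CPM of each other and well under the WT libraries. Mog, a surface glycoprotein of the outermost lamella, was at 66.5, 62.3 and 70.01 CPM in the WT libraries and 50.3, 49.4 and 49.7 in the KO libraries (-0.41 ± 0.05). Cnp, a phosphodiesterase that keeps cytoplasmic channels open in myelin, was at 382, 352 and 388 CPM in the WT libraries and 277, 278 and 286 in the KO libraries (-0.42 ± 0.05). Mag lies on chromosome 7 (30899176 to 30914873, minus strand, GRCm38), Mog on chromosome 17 (37010743 to 37023398, minus strand) and Cnp on chromosome 11 (100574904 to 100591729, plus strand). Opalin was at 24.3, 21.5 and 19.9 CPM in the WT libraries and 15.5, 15.5 and 15.7 in the KO libraries (-0.49 ± 0.08). The other members of this role were Hapln2 (-0.43), Cntn2 (-0.38), Ermn, a cytoskeletal protein of late myelination (-0.36), Adamts4, a matrix protease (-0.34), and Gsn, the actin-severing protein gelsolin (-0.29).

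Genes of lipid synthesis and transport spread more widely. Trf, which encodes the iron carrier transferrin, had the most negative value of all members, -0.62 ± 0.12, at 299.8, 354 and 374 CPM in the WT libraries and 232, 186 and 252 in the KO libraries. WT 1 and KO 2 were its lowest libraries within their groups, and without these libraries its log2 fold change was -0.59. Aspa, the enzyme that splits N-acetylaspartate to feed lipid synthesis, was at 17.02, 14.8 and 14.9 CPM in the WT libraries and 10.5, 11.05 and 11.4 in the KO libraries (-0.50 ± 0.08). Fa2h and Ugt8a, enzymes of the pathway to galactosylceramide, were at -0.33 and -0.27, Apod, a lipid carrier, at -0.41, and Qdpr, which recycles a cofactor of amino acid hydroxylases, at -0.29. The members of this role whose libraries overlapped were Car2, a carbonic anhydrase that choroid plexus also makes (-0.13, with WT 1 and KO 2 again the lowest of their groups), and Enpp2 (-0.06 ± 1.14).

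The remaining mature members followed the same pattern. Myrf, the factor that drives myelin genes, had a log2 fold change of -0.39 ± 0.06 without overlap, and Nkx6-2, a homeodomain factor of low abundance, had -0.39 ± 0.17 with overlap. The lysophosphatidic acid receptor gene Lpar1 was at -0.31 and the orphan receptor gene Gpr37 at -0.34. Bcas1, a marker of actively myelinating cells, was at -0.39, and Evi2a, Rassf2 and Carhsp1 were at -0.35, -0.32 and -0.38.

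Of the precursor members in hippocampus, Pdgfra was at 78.6, 82.99 and 77.8 CPM in the WT libraries and 78.6, 77.6 and 74.3 in the KO libraries (-0.05 ± 0.05). Cspg4 was at 23.8, 24.7 and 25.4 CPM in the WT libraries and 21.99, 23.4 and 24.3 in the KO libraries (-0.09 ± 0.07), and Gpr17 at 76.1, 79.3 and 78.99 CPM in the WT libraries and 77.8, 73.4 and 78.2 in the KO libraries (-0.03 ± 0.05). The genotypes overlapped for all 3. Olig1, a helix-loop-helix factor of the lineage, was at 84.4, 78.01 and 83.3 CPM in the WT libraries and 77.99, 82.6 and 79.2 in the KO libraries (-0.04 ± 0.05), and its partner Olig2 at 21.7, 18.6 and 20.8 CPM in the WT libraries and 17.97, 20.6 and 19.2 in the KO libraries (-0.08 ± 0.08). Sox10, which is kept on from precursor to mature cell, was at 36.2, 36.8 and 41.4 CPM in the WT libraries and 30.6, 32.7 and 35.6 in the KO libraries (-0.21 ± 0.08), so that the highest KO library lay just under the lowest WT library. As shares of the WT mean, the median mature member was at 77.4%, 74.7% and 80.6% in KO 1, KO 2 and KO 3 and at 96.4% to 102% in the WT libraries. The median precursor member was at 92.2% to 96.0% in the KO libraries and at 98.0% to 102% in the WT libraries.

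**Figure D3:**
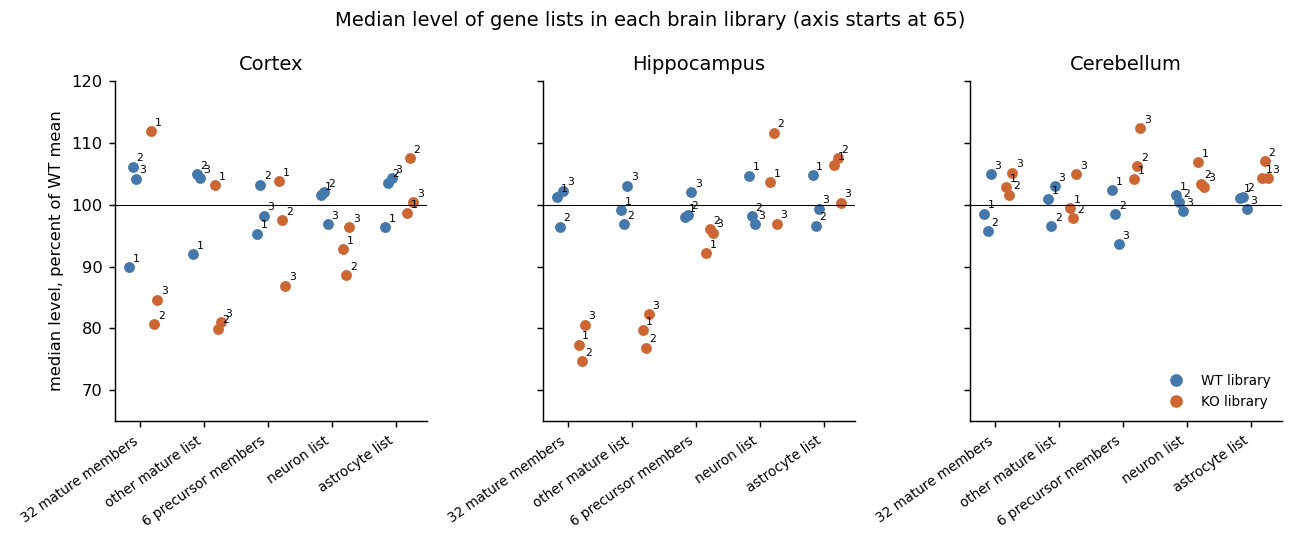
Median level of each gene list in each brain library as a percent of that gene's WT mean, with the replicate number beside each point and an axis that starts at 65. In hippocampus the 3 KO libraries sat between 74.7% and 80.6% for the mature members, and in cortex KO 1 (112%) stood apart from KO 2 (80.6%) and KO 3 (84.7%).

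Cortex showed a split among its KO libraries in place of a separation of genotypes. The median log2 fold change of the mature members was -0.13, with 23 of 32 negative, and 1 of the 32 had non-overlapping libraries, beside 12.8% of all genes lower without overlap. None was higher without overlap, beside 13.3% of all genes. KO 1 was the highest of the 6 libraries for 20 of the 32 mature genes, and KO 2 the lowest for 18. WT 1 was the lowest for another 8. Without KO 1, 18 of 32 did not overlap and the median was -0.31, against 18.2% of all genes without that library. EdgeR called none of the 38 genes in cortex, beside 0.0203% of all genes called in either direction. Other lists differed in cortex too: of 4 blood genes all were negative and 3 lower without overlap, with a median of -0.33 and a list level of 89.8% to 109% of the WT mean in WT and 76.2% to 82.0% in KO. Of 12 endothelial and pericyte genes 3 were lower without overlap (median -0.10), as were 3 of 12 neuron genes (median -0.14) and 3 of 12 microglia genes (median 0.02). The 10 choroid plexus genes tested were all positive (median 0.68), without any that separated the genotypes. The part of these other cells in the cortex values was not tested.

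Cntn2 was the 1 mature gene without overlap in cortex, at 186, 199 and 186 CPM in the WT libraries and 176, 127 and 149 in the KO libraries (-0.34 ± 0.10). Mag was at 152, 177 and 166 CPM in the WT libraries and 175, 115 and 116 in the KO libraries (-0.29 ± 0.15), and Mbp at 2227, 2746 and 2643 CPM in the WT libraries and 2799, 1895 and 1985 in the KO libraries (-0.19 ± 0.14). Both showed the split, with KO 1 inside or above the WT range and KO 2 and KO 3 below it. Mog was at 59.2, 72.8 and 80.8 CPM in the WT libraries and 93.7, 63.2 and 61.9 in the KO libraries (0.04 ± 0.17), Cnp at 319.5, 364 and 345 CPM in the WT libraries and 412, 288 and 277 in the KO libraries (-0.08 ± 0.14), Mobp at 249.9, 308 and 316 CPM in the WT libraries and 356, 232 and 254 in the KO libraries (-0.05 ± 0.15) and Cldn11 at 126, 156 and 139.6 CPM in the WT libraries and 175, 123 and 124 in the KO libraries (0.01 ± 0.14). For these genes KO 1 was the highest library of all. Across the mature members the log2 fold changes ran from -0.34 for Cntn2 to 0.14 for Ugt8a.

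The precursor members of cortex had a median of -0.08. Pdgfra was at 64.5, 69.5 and 79.9 CPM in the WT libraries and 69.4, 79.95 and 74.7 in the KO libraries (0.07 ± 0.09), and Gpr17 at 65.1, 75.4 and 83.01 CPM in the WT libraries and 83.3, 83.1 and 81.9 in the KO libraries (0.15 ± 0.08). Neither separated the genotypes. Cspg4 was at 18.9, 18.8 and 18.04 CPM in the WT libraries and 17.1, 17.9 and 15.98 in the KO libraries (-0.13 ± 0.07), without overlap. Olig1 was at 71.1, 74.04 and 65.8 CPM in the WT libraries and 74.1, 55.4 and 56.00 in the KO libraries (-0.19 ± 0.11), Olig2 at 15.9, 17.9 and 16.7 CPM in the WT libraries and 18.2, 16.6 and 14.8 in the KO libraries (-0.03 ± 0.10) and Sox10 at 27.4, 30.7 and 27.5 CPM in the WT libraries and 29.2, 22.6 and 22.4 in the KO libraries (-0.21 ± 0.11). Olig1 and Sox10 showed the same low values of KO 2 and KO 3 as the mature genes. Markers of neurons also ran lower in KO cortex: 9 of the 12 genes of the neuron list were negative, with a median of -0.14, and the list's median level was 88.6% to 96.4% of the WT mean in KO and 96.9% to 102% in WT. The part of this shift in the oligodendrocyte values was not tested.

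In cerebellum most members were close to their WT level or slightly above it, while Enpp2 was lower (-0.69, taken up below). The median was 0.04 for the mature and 0.10 for the precursor genes, 25 of 32 and 5 of 6 were positive, and 6 mature genes had all KO libraries above all WT libraries, beside 7.48% of all genes. None was lower without overlap, beside 7.22% of all genes. Without WT 3, the highest library for 14 of the 32 mature genes, 14 were above without overlap (16% of all genes without that library). EdgeR called none of the 38 genes, beside 0.226% of all genes, and 4 without WT 3, where 256 of all 14710 genes tested were called. Other lists shifted by similar amounts. The 12 astrocyte genes had a median of 0.07, with 11 positive, 5 higher without overlap and a list level of 99.3% to 101% of the WT mean in WT and 104% to 107% in KO. The 12 neuron genes had a median of 0.05, with 9 positive, 2 higher without overlap and a level of 98.97% to 102% in WT and 103% to 107% in KO. The part of these other cells in the cerebellum values was not tested.

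The 6 genes were Nkx6-2, Cldn11, Gsn, Qdpr, Rassf2 and Cnp. Nkx6-2 was at 4.58, 4.79 and 4.69 CPM in the WT libraries and 4.91, 5.26 and 6.04 in the KO libraries (0.21 ± 0.11), and Cldn11 at 91.7, 92.3 and 100.1 CPM in the WT libraries and 102, 101 and 111 in the KO libraries (0.14 ± 0.06). The gap between the nearest libraries was small for both. Gsn was at 67.3, 75.95 and 74.3 CPM in the WT libraries and 78.8, 76.6 and 81.5 in the KO libraries (0.12 ± 0.06), Qdpr at 133, 134 and 130.3 CPM in the WT libraries and 144, 140.4 and 146 in the KO libraries (0.12 ± 0.04), and Rassf2 at 88.9, 92.8 and 90.5 CPM in the WT libraries and 97.6, 97.6 and 94.5 in the KO libraries (0.09 ± 0.05). Cnp was at 357, 369 and 377 CPM in the WT libraries and 387, 385 and 391 in the KO libraries (0.08 ± 0.04), the narrowest of these differences. Mbp was at 2592, 2321 and 2706 CPM in the WT libraries and 2776, 2605 and 2839 in the KO libraries (0.11 ± 0.06), Mobp at 265, 257 and 292 CPM in the WT libraries and 299, 287 and 306 in the KO libraries (0.13 ± 0.05), Mog at 58.03, 56.8 and 66.6 CPM in the WT libraries and 64.6, 61.5 and 66.9 in the KO libraries (0.09 ± 0.07) and Mag at 169, 159 and 170.4 CPM in the WT libraries and 168, 161 and 177 in the KO libraries (0.02 ± 0.05). These overlapped between genotypes.

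Precursor members overlapped in cerebellum without exception. Olig2 had the highest log2 fold change, 0.29 ± 0.10, at 11.6, 10.2 and 9.101 CPM in the WT libraries and 12.5, 11.5 and 13.5 in the KO libraries. Olig1 was at 49.4, 44.4 and 42.96 CPM in the WT libraries and 49.8, 48.04 and 53.1 in the KO libraries (0.14 ± 0.07), and Sox10 at 28.1, 24.8 and 28.3 CPM in the WT libraries and 27.95, 27.2 and 31.4 in the KO libraries (0.09 ± 0.08). KO 3 was the highest library for all 3 transcription factors. Pdgfra was at 28.5, 29.6 and 33.1 CPM in the WT libraries and 30.1, 29.4 and 30.9 in the KO libraries (-0.02 ± 0.07), Cspg4 at 10.7, 11.3 and 9.89 CPM in the WT libraries and 10.3, 11.8 and 10.6 in the KO libraries (0.04 ± 0.09) and Gpr17 at 31.8, 34.1 and 28.8 CPM in the WT libraries and 33.1, 33.8 and 34.3 in the KO libraries (0.10 ± 0.07).

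Enpp2 moved apart from the other mature members and with the choroid plexus genes. The choroid plexus is the epithelium that makes cerebrospinal fluid, and it makes both autotaxin and transthyretin (Ttr). In hippocampus Enpp2 was at 155, 2912 and 2008 TPM in the WT libraries and 1479.9, 113 and 3254 in the KO libraries, and Ttr at 18.8, 10299 and 7765 TPM in the WT libraries and 4883, 27.9 and 11141 in the KO libraries. WT 1 and KO 2 were the low libraries for both genes, 1 of each genotype. In cerebellum Enpp2 was at 832, 1172 and 1434 TPM in the WT libraries and 687, 452 and 963 in the KO libraries (-0.69 ± 0.22 on the CPM scale), the most negative value of any member there, and Ttr at 2331, 3473 and 3226 TPM in the WT libraries and 1828, 917 and 2529.7 in the KO libraries (-0.75 ± 0.27). KO 2 was the lowest library for both. The 12 genes of the choroid plexus list were all negative in cerebellum, with a median of -0.76, a summed level of 2541 to 3777 TPM in WT and 1032 to 2752 TPM in KO, and no call by edgeR (lowest adjusted p 0.0506). In cortex KO 2 had the most Ttr, 554 TPM, and the most Enpp2, 397 TPM. How much of the Enpp2 signal came from choroid plexus was not tested.

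**Figure D4:**
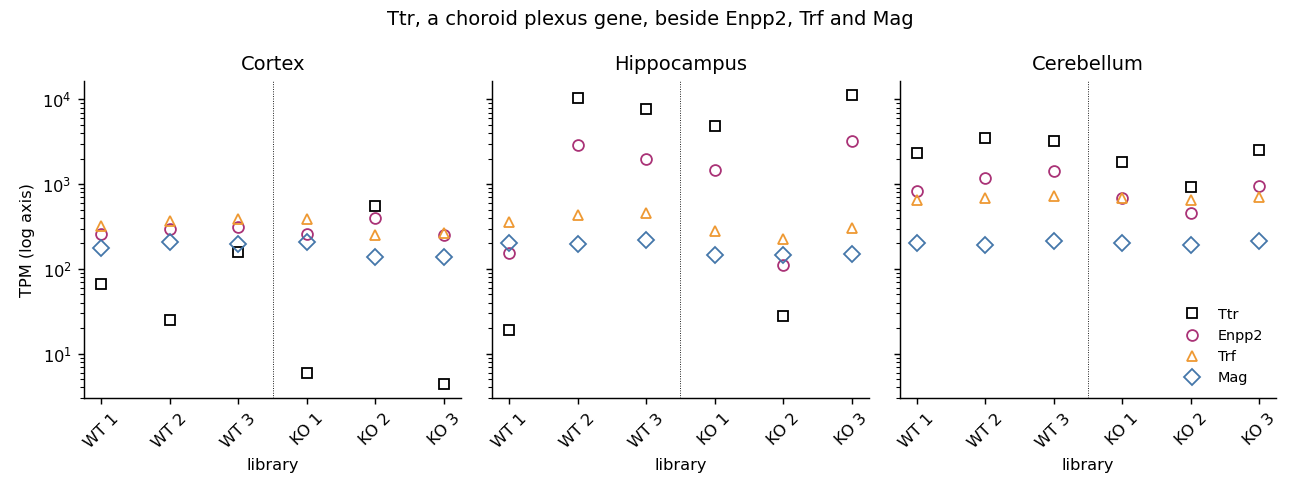
Deposited TPM (log axis) of the choroid plexus gene Ttr and of the members Enpp2, Trf and Mag in each brain library. In hippocampus Ttr and Enpp2 dropped together in WT 1 and KO 2, while Mag was between 196 and 217 TPM in the WT libraries and between 144 and 151 TPM in the KO libraries.

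A second list of 44 mature oligodendrocyte genes outside the 38 was also lower in KO hippocampus. Its libraries did not overlap for 34 of 44 genes, all lower in KO, beside 9.35% of all genes, and the median was -0.36. EdgeR called 6 of the 44, all lower, beside 0.195% of all genes. Without WT 1 and KO 2, 40 of the 44 were lower without overlap, beside 20.6% of all genes, the median was -0.33, and edgeR called none. Among the 6 genes called with all 6 hippocampus libraries, the 5 of largest change were Tmem63a (log2 fold change -0.50 ± 0.06, edgeR adjusted p 0.0415), Sept4 (-0.49 ± 0.07, 0.0433), Plxnb3 (-0.47 ± 0.06, 0.0433), Tmem88b (-0.39 ± 0.05, 0.0424) and Plekhb1 (-0.38 ± 0.04, 0.041). The sixth called gene was Ndrg1. Over all 44 genes, called or not, the log2 fold changes ran from -1.75 to 0.03. In the other regions edgeR called none of the 44, with medians of -0.18 in cortex and 0.02 in cerebellum. There 8 and 5 genes had an unadjusted p under 0.05, beside 3110 of 14802 and 1276 of 14627 genes tested. This list too was written with results of these libraries known, and the calls depended on which libraries entered the test: over all genes edgeR called 31 with 6 hippocampus libraries, 21 without KO 3, and 1 without any single one of the other 5.

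Lists of other cell types had medians between -0.13 and 0.07 in hippocampus, and edgeR called none of their genes. A list of 16 further precursor and newly formed oligodendrocyte genes had a median of -0.07 and no call (3 at an unadjusted p under 0.05). Within it, Enpp6, which marks newly formed oligodendrocytes, was at 10.6, 11.1 and 11.1 CPM in the WT libraries and 7.47, 7.44 and 8.37 in the KO libraries (-0.49 ± 0.08, edgeR adjusted p 0.0803), and Sox8, a relative of Sox10, had a log2 fold change of -0.30 ± 0.05 (adjusted p 0.0941). Both were chosen for mention after their values were seen, and neither passed the test. Medians were 0.07 for the 12 astrocyte genes, -0.01 for the 12 microglia genes, 0.06 for the 12 neuron genes and 0.01 for the 12 endothelial and pericyte genes, and edgeR called none of these 48. At an unadjusted p under 0.05 there were 3, 1, 3 and 2 genes, beside 1852 of all 14843 genes tested. Lower without overlap were 1 astrocyte gene, 0 microglia genes, 1 neuron gene and 1 endothelial or pericyte gene, beside 1388 of all genes. Higher without overlap were 3, 1, 2 and 2, beside 1407 of all genes. The 12 choroid plexus genes had a median of -0.10 and the 4 blood genes one of -0.13, and the libraries of all 16 overlapped. With WT 1 and KO 2 left out, 20.6% of all genes were lower without overlap. Lower were then 2 astrocyte, 1 microglia, 4 neuron and 1 endothelial or pericyte gene, and higher were 5, 1, 3 and 3. Of the 16 further precursor and newly formed oligodendrocyte genes, 6 were lower and 1 higher, with a median of -0.10. The blood median was then -0.22, and edgeR called no gene of these lists.

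Splicing of the members' mRNAs was a readout that the choice of genes did not use. Skipped exons, scored from reads across exon junctions in both forms, could be tested for 24 events of 10 member genes in cortex, 24 events of 6 genes in hippocampus and 26 events of 11 genes in cerebellum. None was called by the limma-moderated quasi-binomial F test at an adjusted p under 0.05 with a difference of at least 0.1 in inclusion, beside 0% of the 3931, 4622 and 5942 events tested, and none by the authors' deposited false discovery rate with the same minimum, beside 0.204%, 0.0433% and 0.0168% of these events. At an unadjusted p under 0.05 there were 7, 1 and 4 member events, beside 343, 257 and 286 of all events tested. The largest absolute difference between the 2 sets of libraries was 6.11, 6.84 and 10.46 percentage points. The tables do not say which set is WT and which KO, so no direction is given. Events were also simulated at these read depths, for exons with more inclusion than skipping reads. Read sampling was the only spread between simulated libraries. A shift of 0.1 was recovered for 9 to 17 of 50 events per region and a shift of 0.2 for 39 to 46. The required difference of 0.1 by itself drops part of the shifts of that size, so these were often not detectable. Libraries that vary by more than read sampling would lower the recovery of both.

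Mbp gave most of the deepest junctions. Its exon of 78 bases was included in 10.9% to 14.1% of transcripts in the 6 cortex libraries, 11.9% to 14.3% in hippocampus and 10.1% to 12.25% in cerebellum. The event had a mean of 1451, 1929 and 2321 junction reads per library. Its exon of 33 bases was included in at least 98.65% and its exon of 102 bases, listed in hippocampus only, in at least 99.95%. The exon of 123 bases has 2 listed events, which differ in the upstream exon end they start from. In the first event it was included in at least 96.5% in each of the 18 libraries, and in the second in 21.5% to 31.5%. For the second event the sets of cortex libraries did not overlap, at 29.8% to 31.5% and 25.6% to 28.4%, a difference of 3.63 percentage points with an adjusted p of 0.263 by the limma-moderated test. The sets of that event overlapped in hippocampus and cerebellum. The 2 sets overlapped for the 78-base exon in all 3 regions. Mag has an exon of 45 bases (chromosome 7, 30900352 to 30900396) whose inclusion gives the short form of the protein, and it was included in 80.65% to 89.1% in cortex, 78.6% to 88.9% in hippocampus and 83.0% to 93.0% in cerebellum. The largest difference of any member event was 10.46 percentage points, for an exon of 42 bases in Bcas1 (chromosome 2, 170370450 to 170370491) in cerebellum, with 46 junction reads per library and an adjusted p of 0.452 by the limma-moderated test.

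Enpp2 held the splicing event that varied most between libraries of 1 set. The exon has 75 bases (chromosome 15, 54851348 to 54851422, minus strand, GRCm38), is exon 20 of 26 in its GENCODE transcript, is coding throughout and adds 25 codons without a shift of frame. It is shown because its inclusion distinguishes forms of autotaxin.
Enpp2 exon, 5′ to 3′ on the gene's strand: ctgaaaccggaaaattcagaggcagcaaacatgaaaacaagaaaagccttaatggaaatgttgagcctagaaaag
In hippocampus its inclusion was 44.8% and 42.0% in 1 library of each set, which had 63 and 93 junction reads. It was 4.98% to 8.08% in the other 4, which had 642 to 1907. The low-read libraries were thus 1 per set, as the libraries poor in Ttr were 1 per genotype, though the tables do not name the libraries. In cortex inclusion ran from 17.6% in the library with the most reads on this event (254) to 48.1%. In cerebellum it was 14.3%, 15.9% and 11.7% in 1 set, with 281 to 524 reads, and 10.8%, 8.84% and 9.43% in the other, with 446 to 882 reads, a difference of 4.29 percentage points that did not overlap and did not pass the correction (limma-moderated quasi-binomial F test, adjusted p 0.0984).

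Levels outside the brain were a readout that the choice of genes did not use. Liver listed 18 of the 38 genes, muscle 25 and testis 30, of which 18, 25 and 27 passed edgeR's filter on low counts. In liver the highest were Trf, the iron carrier of plasma (11364 ± 113 TPM in WT, mean ± SD, n = 3, and 12606 ± 679 in KO), Gjb1, the gap junction protein of hepatocytes (861 ± 81.3 and 735 ± 19.5), Qdpr (473 ± 17.4 and 433 ± 44.3), Carhsp1 (62.7 ± 3.19 and 54.2 ± 1.48) and Enpp2 (52.1 ± 16.8 and 49.2 ± 4.996). In testis they were Car2 (199 ± 5.68 and 192 ± 5.999), Fa2h (81.8 ± 4.33 and 76.2 ± 3.44), Carhsp1 (79.7 ± 2.01 and 78.05 ± 3.79), Cldn11, also the claudin of the Sertoli cell barrier (77.7 ± 13.4 and 69.4 ± 3.78), and Gsn (49.2 ± 5.85 and 43.9 ± 2.15). EdgeR and DESeq2 each called 0 members in liver and 0 in testis, beside 0.411% and 4.27% of all genes by edgeR. By edgeR 4 and 6 members had an unadjusted p under 0.05, beside 1365 of 11928 and 2836 of 15465 genes tested.

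Muscle held the 1 member called outside the brain, Pdgfra, which in muscle marks fibro-adipogenic progenitors. Pdgfra (chromosome 5, 75152292 to 75198215, plus strand) was at 29.9, 42.9 and 33.01 CPM in the WT libraries and 60.8, 61.9 and 69.6 in the KO libraries, a rise of 0.86 ± 0.14 on the log2 scale (edgeR adjusted p 0.0179), without overlap. It was 1 of 25 members tested, beside 4.04% of all genes called, and 4 of the 25 were higher without overlap, beside 16.3% of all genes. Calls over all genes in muscle depended on the libraries used: 512 with all of them, 37 without KO 1 and 18 without KO 3. They ran from 157 to 559 without each of the other libraries. The call was lost without KO 1 (edgeR adjusted p 0.0667) or KO 3 (0.119), and over all alternatives the adjusted p ran from 6.45e-06 with DESeq2 to 0.119. Rassf2 (8.26, 12.4 and 6.32 CPM in the WT libraries and 18.3, 15.2 and 16.4 in the KO libraries, 0.89 ± 0.22, edgeR adjusted p 0.0536) and Trf (35.04, 37.1 and 35.8 CPM in the WT libraries and 50.6, 48.7 and 95.6 in the KO libraries, 0.85 ± 0.23, adjusted p 0.0671) also did not overlap but did not pass, and DESeq2 called both. The log2 fold change of Trf was 0.46 without KO 3, its highest library.

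Genes of other cell types were also called in KO muscle, most of them higher. Of the 8 fibroblast genes tested, edgeR called 3, all higher: Col1a1 (1.19 ± 0.21, adjusted p 0.0218), Col1a2 (1.158 ± 0.21, 0.0244) and Col3a1 (0.69 ± 0.13, 0.0262), which encode fibrillar collagens. The list's summed level was 757 to 1379 TPM in WT and 1692 to 2281 TPM in KO. Of 11 macrophage and microglia genes tested, 5 were called, all higher, among them C1qa (0.91 ± 0.10, edgeR adjusted p 0.00599) and Csf1r (0.72 ± 0.13, 0.0238). Their summed level was 118 to 136 TPM in WT and 248 to 269 TPM in KO. Of the other oligodendrocyte lists, Phldb1 (0.48 ± 0.09, 0.0303), Sox8 (1.54 ± 0.34, 0.0434) and Vcan, a matrix proteoglycan (0.82 ± 0.15, 0.026), were called higher by edgeR. Fgfr3, of the astrocyte list, was called higher (1.27 ± 0.23, edgeR adjusted p 0.025). Egr2, a transcription factor of myelinating Schwann cells and 1 of 11 genes tested of that list, was called lower (-3.14 ± 0.72, edgeR adjusted p 0.0451), although its libraries overlapped, at 2.94, 23.9 and 28.5 CPM in the WT libraries and 3.28, 1.84 and 1.12 in the KO libraries. The part of these other cells in the Pdgfra result was not tested.

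Mbp was present in muscle and did not pass the test. Mbp, which Schwann cells also make, was at 44.02, 82.3 and 55.5 CPM in the WT libraries and 58.1, 51.6 and 66.9 in the KO libraries (-0.04 ± 0.20, edgeR adjusted p 0.916). Gsn was the most abundant member of muscle, at 909 ± 225 TPM in WT and 1475 ± 263 in KO, followed in WT by Qdpr (66.5 ± 6.95 and 75.6 ± 2.84), Mbp (47.2 ± 16.7 and 53.1 ± 9.23), Apod (39.3 ± 14.1 and 47.9 ± 9.76) and Trf (24.4 ± 1.26 and 51.97 ± 23.7). None of these 5 passed edgeR's test in muscle.

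**Figure D5:**
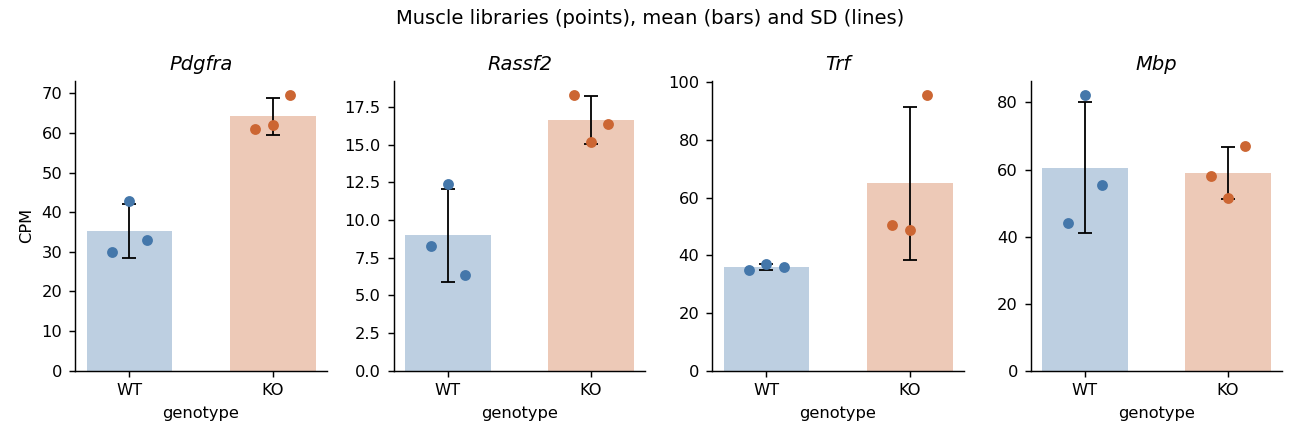
CPM of 4 members in the 3 WT and 3 KO muscle libraries (points), with the mean (bars) and SD (lines). The KO libraries of Pdgfra (60.8 to 69.6 CPM) lay above all WT libraries, while those of Mbp overlapped.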

How the data were processed

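RNA of 36 tissue libraries, 3 per genotype and tissue, was analysed from the tables the authors deposited. The deposited counts are whole reads per gene and library. The deposited TPM values are scaled by gene length and library by the authors, and served for levels between genes and regions. The brain libraries were poly(A)-selected and directional, and those of liver, muscle and testis were made by a sequencing service, per the labels' protocols, so levels were not compared between the brain and other tables. The submitters' processing notes name CASAVA, FastQC 0.11.8, Trimmomatic 0.39, Bowtie2 2.3.5, STAR 2.6.1, RSEM 1.3.1 and DESeq2 1.16.1 and the builds GRCm38 and mm10, with no role or order. The skipped-exon tables hold junction reads of each form and the p-value and false discovery rate deposited by the authors; their column names are those of rMATS, whose version is not given in the sources used here.

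Counts were tested per tissue with edgeR 4.0.16 (R 4.3.3; TMM scaling, filterByExpr, quasi-likelihood F test, Benjamini-Hochberg adjustment over all genes tested, called under 0.05). CPM per library used the TMM-scaled library size. Skipped exons with a mean of at least 20 junction reads in both sets were tested with a quasi-binomial F test whose dispersion was moderated with limma 3.58.1. Libraries were said not to overlap where all 3 of 1 genotype lay above all 3 of the other. Tests were checked on simulated data: in hippocampus, 9 of 50 genes changed 1.25-fold and 33 of 50 changed 1.5-fold were recovered among 14843 genes. Alternatives were DESeq2 1.42.0, median-ratio scaling, no filter, a replicate block, a fit of all 18 brain libraries and leaving out each library.

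The members and lists were chosen with earlier results of these data known. Values per library were given for a fixed set of myelin and precursor genes and for the members of largest change without overlap in each region. Outside the brain, called members and the 5 of highest WT level were named, for exons the 3 events of most reads per region, and for other lists at most 5 called genes. Mag, Bcas1 and Enpp2 exons were named after their values were seen. Cell line libraries, splicing outside the brain and other event types were not analysed here, and 2 libraries in the tables that match no sample were not used. Some genes of the other lists are not reported here by name.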

Additional observations from a re-analysis of the deposited data

Results flagged for a closer look

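For 8 members, all KO libraries lay on 1 side of all WT libraries in 1 tissue and on the other side in another tissue. The difference between tissues was not tested for any of them, and the hippocampus values are among those that served to choose the genes.

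In hippocampus and cerebellum, log2 fold changes of KO over WT were -0.39 and 0.14 for Cldn11, -0.42 and 0.076 for Cnp, -0.29 and 0.12 for Gsn, -0.29 and 0.12 for Qdpr, and -0.32 and 0.0903 for Rassf2. All 6 libraries of each region were separated by genotype for these 5 genes. Of 14234 genes tested in both regions, 60 (0.422%) were higher in cerebellum and lower in hippocampus in this way.

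Outside the brain, Aspa was at 0.77 in liver and 0.41 in testis against -0.50 in hippocampus. Bcas1 was at 0.33 in testis against -0.39 in hippocampus, and Gsn at 0.30 in liver. Trf was at 0.85 in muscle against -0.62 in hippocampus, beside 1.56% of all genes higher in muscle and lower in hippocampus. Rassf2 was at 0.86 in liver and 0.89 in muscle against -0.27 in testis. Of all genes tested in both tissues, 0.662% were higher in liver and lower in hippocampus in this way. The share was 0.762% for higher in testis and lower in hippocampus. It was 0.577% for higher in liver and lower in testis, and 2.03% for higher in muscle and lower in testis. None of these values outside the brain passed edgeR's test with Benjamini-Hochberg adjustment.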

How the results depend on the processing

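The medians of the mature and precursor members kept their sign in each brain region under every alternative run. Over leaving out single libraries, the mature median ran from -0.42 to -0.34 in hippocampus, from -0.31 to -0.04 in cortex and from 0.01 to 0.09 in cerebellum. No member changed sign with a call. Counts of calls moved far more. In hippocampus 10 members were called by edgeR, 27 by DESeq2, 2 in the fit of all 18 brain libraries, 0 to 5 without single libraries, and 0 without WT 1 and KO 2 (an alternative chosen after seeing the data). Cortex went from 0 to 1 with DESeq2 and to 1 in the fit of all 18 libraries, and cerebellum ran from 0 to 4 without single libraries. Muscle went from 1 to 3 with DESeq2 and from 0 to 4 without single libraries, and testis from 0 to 1. Mature genes lower without overlap numbered 29 to 30 in hippocampus, 1 to 18 in cortex and 0 to 4 in cerebellum when single libraries were left out. The cause was not tested. Over all genes, DESeq2 called 914 in cortex against 3 by edgeR, 259 against 31 in hippocampus, 91 against 33 in cerebellum, 277 against 49 in liver, 1097 against 512 in muscle and 481 against 661 in testis. Without WT 3, edgeR called 1102 genes in cortex and 256 in cerebellum.

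With the replicate number as a block, 0 members were called in hippocampus and 0 in muscle, where Pdgfra had an edgeR adjusted p of 0.0521. Same-numbered libraries did not deviate together in any tissue by the rule used (correlations from -0.665 to 0.6 between hippocampus pairs), so the numbers were not taken as pairs. No paired analysis was possible because the junction columns of the skipped-exon tables carry no replicate numbers, and that alternative was not run. Counts of called skipped exons of members were 0 under every other alternative.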
